A study of Rattus norvegicus with 10 samples.

Results

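The genes described here are the 8 named members of the rat MHC class II antigen presentation pathway, RT1-Ba, RT1-Bb, RT1-Da, RT1-Db1, RT1-DMa, RT1-DMb, Cd74 and Ciita, out of 14217 genes that the arrays named by a single symbol. They were found by symbol: a probe set counted as a member's when the array annotation gave it exactly 1 gene symbol and that symbol was one of the 8. This gave 14 probe sets, 13 of which were bright enough to be tested, and each of the 8 genes kept at least 1. A probe set is a group of short probes read as 1 value for a transcript, and its value is a log2 signal, so a difference of 1 is a doubling. Where a gene had several probe sets, the one with the highest mean over all 10 arrays stands for it, and the others are given beside it.

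RNA was measured on 10 Affymetrix Rat Genome 230 v2.0 arrays from 5 mammary tumours of female Sprague-Dawley rats, each tumour sampled at the end of the experiment and, earlier, by biopsy. The tumours are known by the identifiers 66D2, 67D3, 45D3, 49I1 and 51I1, and wherever 5 values follow one another below they keep that order. All had been induced with the carcinogen dimethylbenz[a]anthracene (DMBA), given once by mouth at 100 mg/kg, and were of Bloom-Richardson grade II. The final samples (n = 5) were taken at sacrifice at 19 weeks of age, in week 7 after the biopsy, from animals gavaged for 6 weeks, on 5 days in each, with 0.5 mg/kg of hydroxytyrosol, a phenol of olive oil. The basal samples (n = 5) were Trucut needle biopsies of the same tumours, taken at a size of 2 cm3 in animals 12 weeks old, before any hydroxytyrosol. The labels give the final tissue as total tumour and the basal tissue as a biopsy, while the design text describes needle samples for both. No later sample of an untreated tumour was analysed here, so treatment, age, tumour growth and the way of sampling cannot be told apart in any difference below. Each group carries the same carcinogen exposure, and normal mammary gland was not analysed here. The labels do not say that every tumour came from a separate rat, so the p-values measure the spread between these 5 tumours.

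MHC class II molecules are surface pairs of an alpha and a beta chain that show peptides from taken-up proteins to CD4 T cells. The rat has 2 classical pairs, RT1-B, the counterpart of human HLA-DQ, and RT1-D, the counterpart of HLA-DR. The invariant chain Cd74 guides new pairs to endosomes and blocks their groove, and the DM molecule, itself an alpha and a beta chain, exchanges the remaining fragment of Cd74 for peptide. Dendritic cells, macrophages and B cells make class II constantly, and many other cells, mammary epithelium among them, can make it under interferon gamma. Ciita is the coactivator without which these genes stay nearly silent: it binds no DNA itself but docks on the RFX complex, CREB and NF-Y, which sit on the X and Y boxes of class II promoters.

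Because the members are known for this shared promoter layout, the stretch that holds it is printed for the chains whose signals are described below. The sequences are RefSeq's, build GRCr8, on the strand of the gene from 120 to 26 bases before the gene's start. Capitals mark, on the printed strand only, the core of the Y box, ATTGG (the CCAAT sequence read on the other strand), and the core of the X box, GCAAC. RT1-Db1 also has a Y core on the opposite strand, 55 bases before the start, left in small letters.
RT1-Da, chr20:4515295-4515389, plus strand: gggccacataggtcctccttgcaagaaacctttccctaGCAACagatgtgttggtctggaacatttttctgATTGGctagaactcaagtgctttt
RT1-Db1, chr20:4560188-4560282, minus strand: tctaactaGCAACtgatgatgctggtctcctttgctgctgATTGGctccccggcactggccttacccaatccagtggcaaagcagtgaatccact
RT1-Ba, chr20:4576937-4577031, plus strand: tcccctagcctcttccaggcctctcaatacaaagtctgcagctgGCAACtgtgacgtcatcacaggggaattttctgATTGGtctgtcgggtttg
RT1-Bb, chr20:4604144-4604238, minus strand: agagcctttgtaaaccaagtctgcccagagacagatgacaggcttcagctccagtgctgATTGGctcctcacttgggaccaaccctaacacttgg
RT1-DMa, chr20:4712361-4712455, minus strand: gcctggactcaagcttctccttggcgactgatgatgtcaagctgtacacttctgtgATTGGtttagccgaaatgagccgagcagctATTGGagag

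The promoter table held 6 of the 8 members, with 250 bases before and 50 after the start of each gene. All 6 carried the Y core on either strand, against 37.5% of all 33469 rat promoters of that length in the table, and 4 of 6 carried the X core, against 35.1%. An X core followed by a Y core 15 to 45 bases on, in the same orientation, was found in RT1-Da, RT1-Db1 and RT1-Ba, with 28, 27 and 28 bases between them, and in 444 of all promoters (1.33%). RT1-Bb and RT1-DMa held the Y core without that X core, at 61 bases before the start in RT1-Bb and at 64 and 34 bases in RT1-DMa. RT1-Bb held a further Y core on the opposite strand, 172 bases before the start. Cd74, on chromosome 18, held the X core 70 bases before its start and a Y core on the opposite strand. The 5 genes printed lie on chromosome 20 and Ciita on chromosome 10. A match of letters is a description of the window and says nothing of binding in these tumours.

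Across the 5 tumours the class II genes showed no common direction at the end of the experiment. Of the 8 genes, 3 had a higher mean in final samples than in basal samples, near the background of 50% of all 18625 probe sets tested, and their median difference was -0.03 with an SD of 1.01 over the 5 tumour medians, against 0.00 for all probe sets tested. The adjusted p of the 8 main probe sets in limma's paired test lay between 0.847 and 0.992. None of the 8 was below 0.05 without adjustment, where 8.02% of all probe sets were, and none kept 1 sign over all 5 tumours, where 8.71% did (3.96% higher throughout and 4.75% lower throughout). No probe set of the whole array passed the adjusted threshold of 0.05 (0% called; smallest adjusted p 0.413), although 1494 were below 0.05 unadjusted, and 1394 in the methods' t-test, of which 0 passed after Benjamini-Hochberg adjustment. For every member the values of final and basal samples overlapped. By its main probe set, RT1-Bb had a measurable signal in only 67D3 and 49I1. Among the other 7 genes 3 had a higher mean, and that count turned on single tumours. It was 7 of 7 without 67D3 (median difference 0.34) or without 45D3 (0.11), 2 without 49I1 (-0.07), and 0 without 66D2 (-0.28) or without 51I1 (-0.20).

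What the members did show was a shared movement within each tumour, in opposite directions between tumours. A gene is counted in a tumour where its main probe set was above the dim cutoff of 5.145 at 1 time or both. This rule, set after the RT1-Bb values were seen, leaves RT1-Bb out of 66D2, 45D3 and 51I1. In 66D2 all 7 measurable genes were higher in the final sample, with a median change of 0.998, and 3.36% of all tested probe sets lay above that. In 67D3 all 8 were lower, with a median change of -1.54, below which lay only 0.827% of the tested probe sets. In 45D3 6 of 7 were lower, with a median of -0.70, and 9.73% of the tested probe sets lay below it. Only in 45D3 did the final sample not correlate best with its own biopsy over the tested probe sets (-0.162). For this, each probe set was first centred on the mean of its group, so the value compares deviations and not signal levels.

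In 49I1 7 of 8 members were higher in the final sample, with a median of 0.27, and 17.5% of the tested probe sets lay above it. In 51I1 all 7 measurable ones were higher, with a median of 0.68, and 7.85% of the tested probe sets lay above it. Over all tested probe sets, 50.3% were higher in the final sample of 66D2, 44.3% in that of 49I1 and 44.1% in that of 51I1, while 50.8% were lower in that of 67D3 and 44.5% in that of 45D3. A positive change in 66D2, 49I1 and 51I1 together with a negative one in 67D3 and 45D3 was shown by 6 of the 7 genes measurable in every tumour, RT1-DMa being the exception, and by 870 of all tested probe sets (4.67%). Counting every tested probe set of the members, which takes some genes more than once, 9 of 13 showed it. The pattern was read from the members' own changes. Their counts therefore only describe it and cannot be weighed against the share of all tested probe sets. Each tumour gave 1 array per time, so a single tumour's change has no replicate error of its own, and the difference between tumours was not tested.

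**Figure D1:**
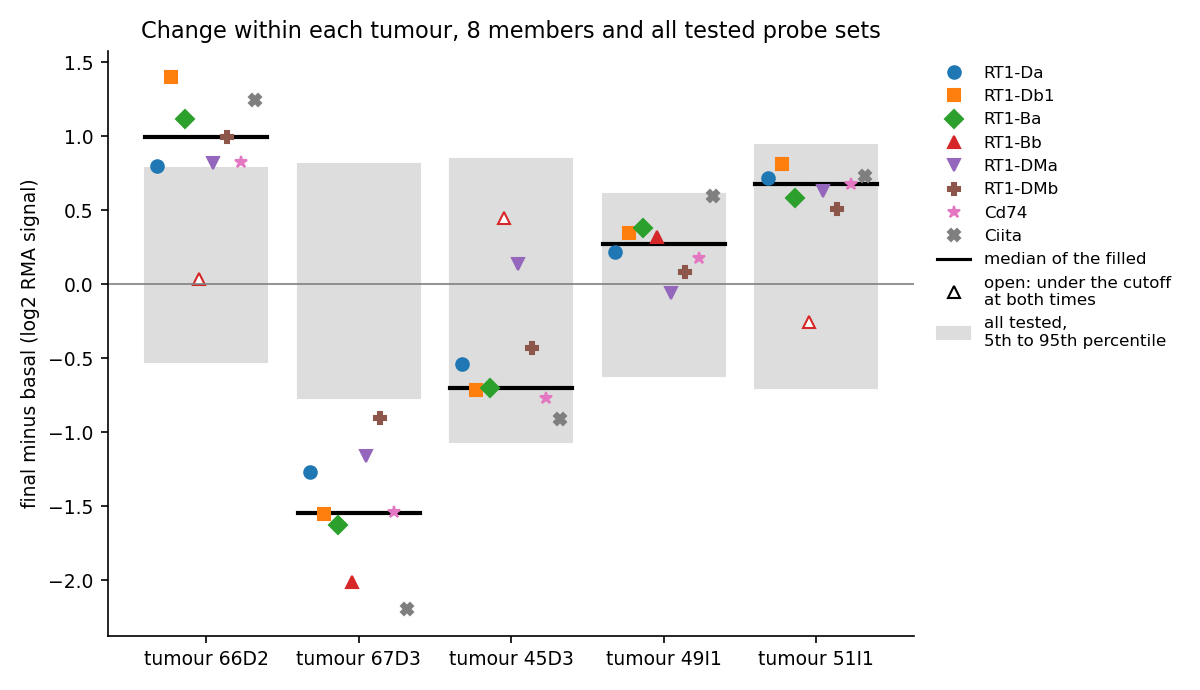
Change of each class II gene in each tumour, final minus basal on the log2 scale (main probe sets), with the 5th to 95th percentile of all tested probe sets of that tumour as a grey band; open symbols mark RT1-Bb where it was under the cutoff at both times, and black bars are the medians of the filled symbols. The 7 measurable genes lie above 0 in 66D2 and all 8 lie below 0 in 67D3, where the median change was -1.54.

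The spread of these changes was wide for the array. The SD over the 5 tumour changes ran from 0.751 to 1.42 among the 8 genes, against a median of 0.303 over all tested probe sets, and 90.0% to 98.2% of the tested probe sets had a smaller SD than a given member. The confidence intervals of the mean difference were correspondingly wide, from -1.30 to 1.09 for Ciita at the widest and from -0.60 to 0.70 for RT1-DMb at the narrowest (95% intervals), and differences inside them were not detectable with 5 pairs.

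The RT1-D chains, the counterpart of HLA-DR, gave bright signals on every array. RT1-Da, the alpha chain, had 12.65, 11.82, 12.40, 12.72 and 13.59 in the final samples, against 11.85, 13.09, 12.93, 12.50 and 12.87 in the basal samples of the same tumours. The 67D3 final sample was the lowest of all 10 and the 51I1 final sample the highest, so the final samples lay on both sides of the basal ones. The means were 12.63 ± 0.64 in final and 12.65 ± 0.49 in basal samples (SD, n = 5 each), a difference of -0.01 (SE 0.316; limma, adjusted p = 0.992).

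RT1-Db1, the beta chain that pairs with RT1-Da, had 11.23, 10.01, 10.69, 11.19 and 12.24 in the final samples, against 9.83, 11.56, 11.41, 10.84 and 11.43 in the basal samples. Its changes were 1.40, -1.55, -0.71, 0.35 and 0.81, and its lowest value of all was the 66D2 biopsy. The mean difference was 0.06 (SE 0.42; limma, adjusted p = 0.976). Its other probe set gave -0.17 (limma, adjusted p = 0.931), so the sign of the mean depended on the probe set while neither passed the test.

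**Figure D2:**
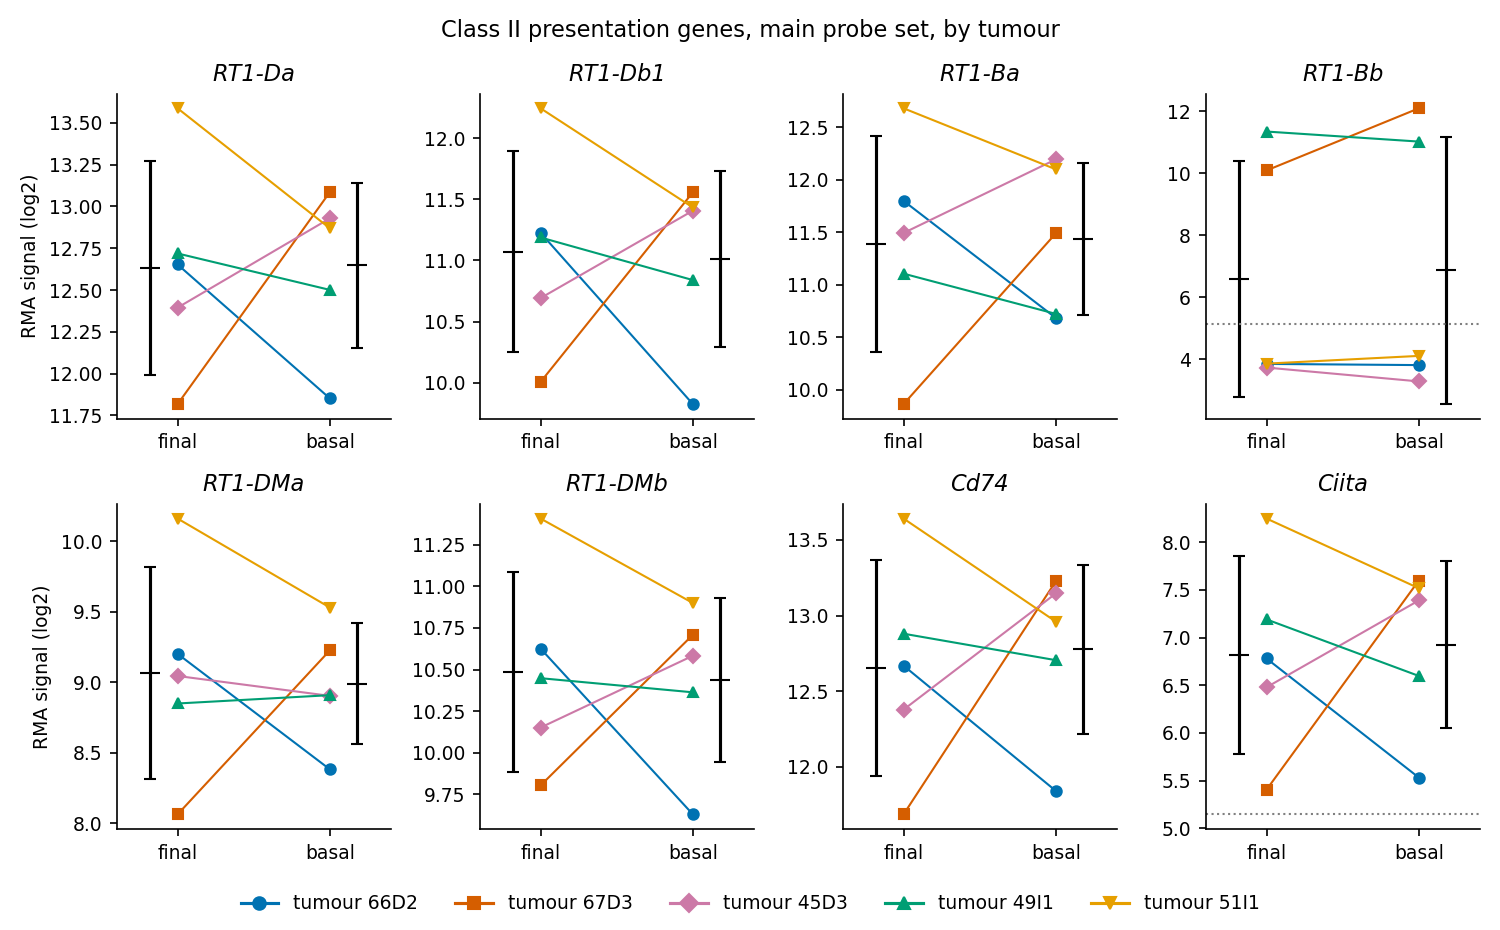
Log2 signal of each class II gene (main probe set) in the final sample, left, and the basal sample, right, of each tumour, with 1 line per tumour and the mean and SD of each group in black; the dotted line is the cutoff under which probe sets were not tested. RT1-Da, RT1-Db1, RT1-Ba, RT1-DMb, Cd74 and Ciita show lines crossing in the same way, while RT1-Bb has 2 tumours above the cutoff and 3 under it.

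The invariant chain followed the RT1-D pair tumour by tumour. Cd74 had 12.67, 11.69, 12.38, 12.88 and 13.64 in the final samples of 66D2, 67D3, 45D3, 49I1 and 51I1, against 11.84, 13.23, 13.15, 12.71 and 12.96 in the basal samples. In folds, the final sample had 1.77 times the basal signal in 66D2, 0.344 times in 67D3, 0.587 times in 45D3, 1.13 times in 49I1 and 1.60 times in 51I1. Its means were 12.65 ± 0.71 in final and 12.78 ± 0.56 in basal samples (SD, n = 5 each), differing by less than the spread in either group (limma, adjusted p = 0.942).

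Both chains of the peptide exchanger DM were measured by 1 probe set each. RT1-DMb, the beta chain, had 10.63, 9.80, 10.15, 10.45 and 11.41 in the final samples and 9.63, 10.71, 10.58, 10.36 and 10.90 in the basal samples, with changes of the same signs as Cd74. RT1-DMa, the alpha chain, had 9.20, 8.06, 9.04, 8.85 and 10.16 in the final samples and 8.38, 9.23, 8.90, 8.91 and 9.53 in the basal samples. RT1-DMa differed from the common pattern in the small changes, 0.14 in 45D3 and -0.06 in 49I1, and shared the large ones in 66D2, 67D3 and 51I1. The mean differences were 0.05 for RT1-DMb (SE 0.273; limma, adjusted p = 0.970) and 0.07 for RT1-DMa (SE 0.282; limma, adjusted p = 0.956).

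Ciita, the coactivator of all these genes, had the widest interval of the 8 and the lowest change in 67D3. It had 6.78, 5.40, 6.48, 7.19 and 8.25 in the final samples of 66D2, 67D3, 45D3, 49I1 and 51I1, against 5.53, 7.60, 7.39, 6.60 and 7.52 in the basal samples. The final signal was 2.38 times the basal one in 66D2, 0.218 times in 67D3, 0.532 times in 45D3, 1.51 times in 49I1 and 1.66 times in 51I1, the same order of directions as the chains. The mean difference was -0.11 (SE 0.499; limma, adjusted p = 0.966), and its other probe set gave 0.10 (limma, adjusted p = 0.930) with a correlation of 0.945 between the 2 probe sets over the 10 arrays.

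RT1-B, the counterpart of HLA-DQ, was the pair on which probe sets disagreed most. RT1-Ba, the alpha chain, had 11.80, 9.86, 11.49, 11.11 and 12.68 in the final samples by its main probe set (1377334_at), against 10.68, 11.49, 12.19, 10.72 and 12.10 in the basal samples. These changes had the signs of the RT1-D chains, and the mean difference was -0.05 (SE 0.391; limma, adjusted p = 0.978). The other 3 probe sets of RT1-Ba gave mean differences of -0.20, -0.18 and -0.14, none past the threshold.

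One of them, 1370822_at, divided the tumours instead of the times. It had 9.32 and 10.71 in the final samples of 67D3 and 49I1 and 7.41, 7.21 and 8.34 in those of 66D2, 45D3 and 51I1, against 11.24 and 10.62 in the basal samples of 67D3 and 49I1 and 7.09, 7.45 and 7.61 in the other three. Its correlation with the main probe set of RT1-Ba over the 10 arrays was -0.351, a description over 5 pairs of arrays from the same tumours. The last 2 probe sets correlated at 0.912 with each other and at 0.14 and 0.22 with the main one. In 66D2 they changed by -0.52 and -0.41, where the main one changed by 1.115.

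RT1-Bb, the beta chain, divided the same tumours more sharply. Its main probe set, 1371033_at, had 10.09 in 67D3 and 11.35 in 49I1 in the final samples, with 3.84, 3.73 and 3.85 in 66D2, 45D3 and 51I1, against 12.10 in 67D3 and 11.03 in 49I1 in the basal samples, with 3.81, 3.28 and 4.10 in the others. The 6 low values lie under 5.145, the level below which probe sets were left out, so no fold is given for those 3 tumours. In the 2 tumours with signal the change was -2.01 in 67D3 and 0.32 in 49I1, with the same signs as RT1-Da. The mean difference over all 5 pairs was -0.29 (SE 0.356; limma, adjusted p = 0.847), and it includes the 3 pairs under the cutoff.

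The probe set passed the filter on dim signal through these 2 tumours alone. The lower of their means over the 2 times, 11.10 in 67D3, stood 5.95 above the cutoff on the log2 scale. Its distance to the other tumours, which lay under the cutoff, is at least that, a bound and not a measured gap. The second probe set of RT1-Bb, 1371065_at, was too dim on average to be tested, with 3.66 to 6.36 in final and 4.54 to 5.34 in basal samples. It was under the cutoff on 8 of the 10 arrays and above it in the 51I1 final and 45D3 basal samples. Over the 10 arrays it correlated at 0.908 with the main probe set of RT1-Ba and at 0.81 with RT1-Da. With the main probe set of RT1-Bb the correlation was -0.573. Class II B chains are known to differ in sequence between rat haplotypes, and the Sprague-Dawley rat is an outbred stock; the animals' haplotypes were not analysed here, and their part in these signals was not tested.

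**Figure D3:**
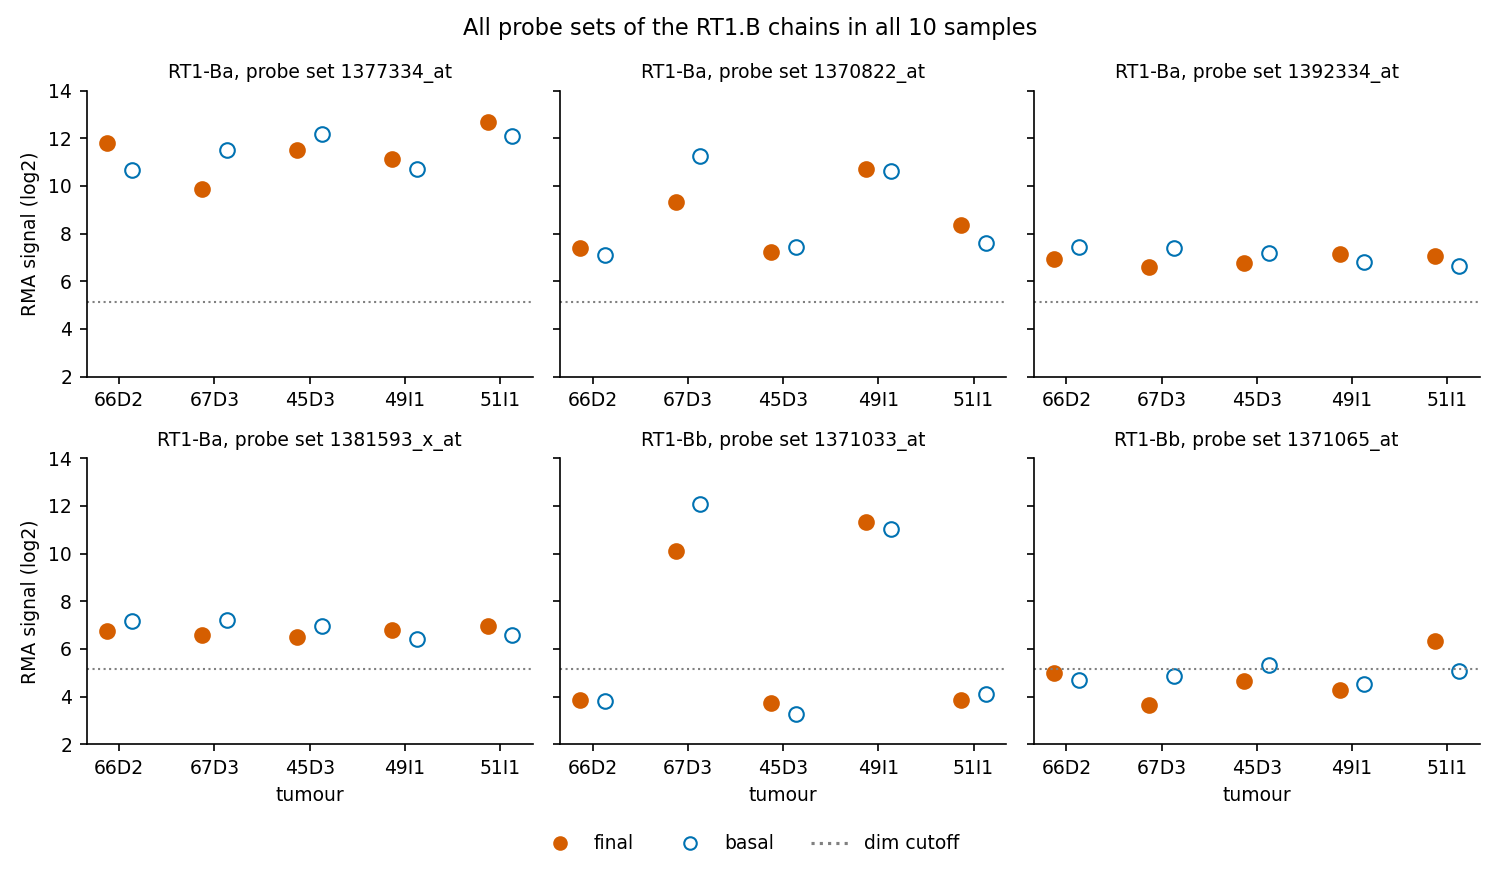
Log2 signal of every RT1-Ba and RT1-Bb probe set in the final and basal samples of each tumour. In 1371033_at (RT1-Bb) and 1370822_at (RT1-Ba) the tumours 67D3 and 49I1 lie above the others at both times, which the main RT1-Ba probe set, 1377334_at, does not show.

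The joint movement can be put as correlations over the 10 arrays, which are 5 pairs from the same tumours and so carry no test. Among the 7 main probe sets other than RT1-Bb the 21 pairwise correlations ran from 0.839 to 0.992, with a median of 0.937. The main RT1-Bb probe set, under the cutoff on 6 of the 10, correlated with the other 7 at -0.57 to -0.05, median -0.10.

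The genes listed for peptide processing in class II loading, proteases and others, had median changes by tumour nearer to 0 than the members had. All 12 on the list were tested: 10 had a higher mean in final samples and 2 a lower one, none below 0.05 unadjusted, with a median difference of 0.12 against 0.00 for all probe sets. Ctsh, a lysosomal cysteine protease, differed by 0.41 (limma, adjusted p = 0.659), and Ctse, an endosomal aspartic protease, by 0.33 (limma, adjusted p = 0.657). Ctss, a protease known to trim Cd74 in antigen-presenting cells, averaged 11.04 ± 0.52 in final and 10.93 ± 0.37 in basal samples (SD, n = 5 each). Its changes were 0.93, -0.54, -0.74, -0.02 and 0.94. The median changes of the list by tumour were 0.33, 0.01, -0.07, -0.01 and 0.34.

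Among the DNA-binding factors of the class II promoter and the regulators of Ciita, 10 of 13 listed were tested, of which 2 had a higher and 8 a lower mean in final samples. One was below 0.05 unadjusted, where 4.59% of all probe sets were so in the lower direction: Nfyb, a subunit of NF-Y, at -0.22 and lower in all 5 tumours (limma, adjusted p = 0.620). Rfx5, which binds the X box, differed by -0.04 (limma, adjusted p = 0.966), with changes of 0.04, -0.66, -0.18, 0.48 and 0.15, signs that match the chains. Rfxank, its partner, differed by -0.19 (limma, adjusted p = 0.666) and was lower in all 5 tumours. Its level averaged 5.76 ± 0.11 in final and 5.96 ± 0.12 in basal samples (SD, n = 5 each), close to the level under which probe sets were left out.

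The interferon gamma pathway, which induces Ciita, had 15 tested genes of 18 listed, 11 with a higher and 4 with a lower mean in final samples and none below 0.05 unadjusted. Ifng itself averaged 3.20 ± 0.16 in final and 3.07 ± 0.12 in basal samples (SD, n = 5 each), under the cutoff, so its level was not measurable. Irf1, which drives an inducible promoter of Ciita, differed by 0.29 (limma, adjusted p = 0.671), and its change in 67D3 was 0.81 where every class II member was lower. Cxcl9, a chemokine induced by interferon gamma, changed by 0.10, -1.46, 0.25, -0.63 and 0.64, and Cxcl11, another, by 3.22, 0.42, -0.58, 0.34 and 1.45. The list's median changes by tumour were 0.27, -0.14, -0.01, -0.04 and 0.04.

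The list for class II turnover at the surface and costimulation held 14 symbols, with an older and a newer one each for Marchf1 and Marchf8. On the array were 11 of its genes, of which 9 were tested, 6 with a higher and 3 with a lower mean. Marchf8, a ubiquitin ligase of membrane proteins, differed by 0.22 and was higher in all 5 tumours, the only one below 0.05 unadjusted, where 3.43% of all probe sets were so in the higher direction (limma, adjusted p = 0.611). Cd83, which protects surface class II from ubiquitination, changed by 0.52, -1.02, -0.58, -0.39 and 1.07. The list's medians by tumour were 0.43, -0.44, -0.35, 0.18 and 0.58, with the same signs as the members.

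Class I presentation, which shows peptides of the cell's own proteins to CD8 T cells, was set beside class II. Of 22 listed genes 17 were tested, 12 with a higher and 5 with a lower mean in final samples and none below 0.05 unadjusted. The medians by tumour were 0.05, -0.09, 0.29, 0.07 and 0.00. In 67D3, where the class II members had a median of -1.54, 5 of the 17 class I genes were higher in the final sample. There Tapbp, which links class I to the peptide transporter, changed by 0.17, and Psmb8, a subunit of the immunoproteasome, by -0.25. RT1-N3 changed by -0.82, the most negative change of the list in that tumour.

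These are bulk samples, so fewer cells of a type and less RNA per cell cannot be told apart, and markers of the cells that make class II are given here beside the members. Of 8 pan-leukocyte markers, all tested, 7 had a higher mean in final samples. Their median changes were 1.40, -1.33, -0.71, 0.58 and 1.19, the signs of the class II members in every tumour. Their mean level ran from 7.85 to 9.78 in final and from 7.63 to 9.14 in basal samples. Cd52, the only one with a lower mean, changed by 0.59, 0.44, 0.02, -1.08 and -0.66. Its signs were opposite to those of the members in every tumour but 66D2. Ptprc, which encodes CD45, changed by 1.59, -1.87, -1.05, 1.09 and 1.72 (mean difference 0.29; limma, adjusted p = 0.910).

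T and NK cell markers did likewise, although rat T cells are not the main makers of class II. Of 15 on the array 12 were tested and 11 had a higher mean in final samples, with median changes of 1.57, -1.27, -1.03, 1.20 and 1.27 and levels of 5.90 to 8.23 in final and 5.34 to 7.41 in basal samples. Cd2, an adhesion receptor of T and NK cells, changed by 1.66, -0.95, -0.80, 1.06 and 1.31. Against the sign of the list median, Prf1 changed by 0.08 in 67D3, and Gzmb by 0.74 in 45D3 and -1.60 in 51I1.

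Macrophage markers shared the signs of the members in 4 of the 5 tumours. All 14 on the array were tested, 8 with a higher and 6 with a lower mean, and their median changes were 0.83, -0.86, -0.57, -0.44 and 1.08. The exception was 49I1, where 1 of the 14 was higher in the final sample while 7 of the 8 class II members were. Cd68, a lysosomal protein of macrophages, averaged 8.91 ± 0.74 in final and 8.93 ± 0.51 in basal samples (SD, n = 5 each), and Csf1r, the receptor for their growth factor, 8.22 ± 0.75 and 8.08 ± 0.46 in final and basal samples (SD, n = 5 each). The levels of the list were 8.54 to 10.30 in final and 8.41 to 9.38 in basal samples.

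Dendritic cell markers had 8 tested of 9 on the array, 1 with a higher and 7 with a lower mean in final samples, Flt3 being under the cutoff. Their median changes were 0.31, -1.42, -0.50, -0.05 and 0.88, and their levels 6.39 to 8.15 in final and 6.40 to 7.58 in basal samples. Clec9a, a receptor of cross-presenting dendritic cells, changed by 0.36, -1.9999, -0.55, -1.17 and 0.74. Its level averaged 5.39 ± 0.74 in final and 5.91 ± 0.51 in basal samples (SD, n = 5 each), close to the cutoff. Against the sign of the list median, Batf3 changed by -0.455 in 66D2, 1.09 in 67D3 and -0.75 in 51I1. Itgae likewise changed by -0.22 in 66D2 and -0.13 in 51I1.

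B cell markers were at the bottom of the scale: 7 of the 8 on the array were under the cutoff, among them Cd79b, Cd22 and Ms4a1, the gene of CD20, which averaged 3.57 ± 0.14 in final and 3.61 ± 0.20 in basal samples (SD, n = 5 each). Fcrla, the only one tested, differed by -0.14 (limma, adjusted p = 0.749). Both tested plasma cell genes had a lower mean in final samples, and the joining chain gene Jchain changed by 0.32, -1.36, -1.84, 2.05 and 0.28. The lymph node stroma list, which would accompany a lymph node in the sample, had 6 tested genes, 5 with a higher mean in final samples, and median changes of 1.499, -0.23, -0.91, -0.07 and 1.88. Glycam1, a ligand of L-selectin that mammary epithelium also makes, changed by -2.55, -1.32, 0.81, -5.02 and -1.19, the only one of the list below 0.05 unadjusted, where 4.59% of all probe sets were so in the lower direction (limma, adjusted p = 0.614). The chemokine Ccl21 changed by 4.80, 5.46, -3.90, 1.53 and 5.18 (limma, adjusted p = 0.661). The members of this list did not move together: in 67D3 Cxcl13, a chemokine for B cells, changed by -1.54 and Ltb, lymphotoxin beta, by -1.49, while Ccl21 had a positive change.

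The luminal epithelial markers, which check the labelled tissue, were high throughout, with mean levels of 10.52 to 11.06 in final and 10.60 to 11.05 in basal samples; Esr1, the estrogen receptor gene, was under the cutoff. Their median changes were 0.09, 0.42, 0.16, -0.06 and -0.41, opposite in sign to the class II members in 67D3, 45D3, 49I1 and 51I1. Skeletal muscle, adipocyte and fibroblast lists had a higher mean in final samples for 7 of 7, 7 of 7 and 10 of 10 tested genes, with median differences of 3.005, 0.97 and 0.60 and none past the adjusted threshold. Below 0.05 unadjusted in the higher direction were 6 of 7, 2 of 7 and 2 of 10 of them, against 3.43% of all probe sets. Of the luminal list Pgr, the progesterone receptor gene, was below 0.05 unadjusted, at -0.50 and lower in all 5 tumours (limma, adjusted p = 0.610). The median changes of the fibroblast list by tumour were 1.30, 1.23, -0.96, 0.57 and 0.80. The part of any of these cell types in the class II values was not tested.

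**Figure D4:**
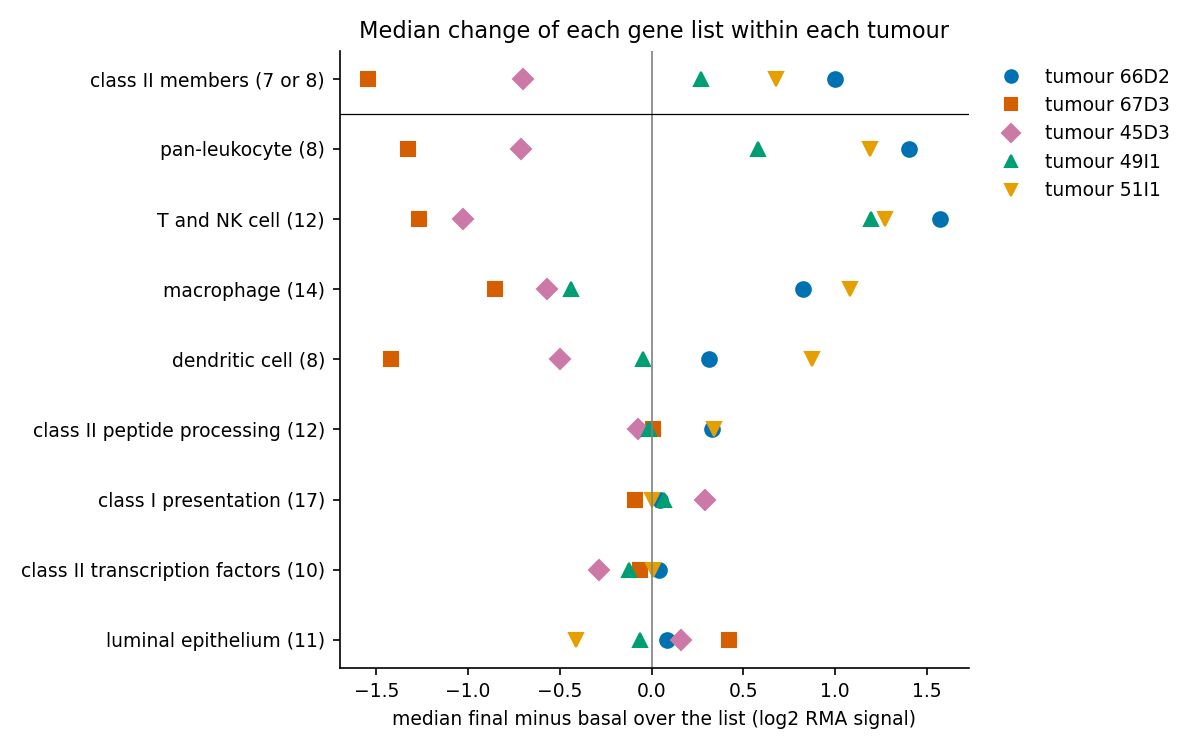
Median change by tumour, final minus basal on the log2 scale, of the class II members measurable in that tumour and of the marker and pathway lists (tested genes only). The pan-leukocyte and T and NK cell medians share the sign of the class II median in all 5 tumours, and the macrophage median does so in 4.

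RNA quality also moved with the result. The arrays carry probes at the 3′ and 5′ ends of hexokinase, and their difference in log2 signal grows when transcripts are shortened. It was 0.89 to 1.10 on the final arrays, against 0.97, 2.02, 2.36, 1.19 and 1.29 on the basal arrays. The 2 tumours with the highest basal values, 67D3 and 45D3, are the only ones in which the class II members had a negative median. Leaving these 2 out, a choice made after seeing the data, therefore fixes a positive direction beforehand and says nothing of the part of RNA quality. Over the other 3 pairs the median difference was 0.57 and the smallest adjusted p 0.151 (Ciita, limma). With the hexokinase difference as a covariate the median was 0.57 and none passed the threshold. That difference changed most in 67D3 (-1.02) and 45D3 (-1.47), so the covariate cannot be told apart from these 2 tumours either. The part of RNA quality in the result was not tested.

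Finally, other genes were ranked by how closely they followed the members over the 10 arrays, using the mean of the members' main probe sets, each centred on its own mean, as the profile. Here, and for the marker genes below, the tested probe set with the highest correlation stands for a gene, whether or not it is the brightest. With all 8 members in the profile, 3 of 10831 other genes reached a correlation over 0.9 and 78 over 0.8, led by Septin9, a septin (0.938), Ptk2, focal adhesion kinase (0.927), and Ndrg4 (0.909). Because the profile then holds RT1-Bb values under the cutoff, the ranking was repeated without it, a choice made after its values were seen. Then 75 genes were over 0.9 and 236 over 0.8, led by Cd53, a tetraspanin of leukocytes (0.987), Bcl2a1, a survival factor of the Bcl2 family (0.984), Marchf1, a ubiquitin ligase of class II in antigen-presenting cells (0.975), Vav1, a signalling protein of blood cells (0.973), and Cst7, a cystatin of leukocytes (0.968).

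Cd53 changed by 1.32, -1.46, -0.66, 0.53 and 1.03, and Marchf1 by 0.95, -1.39, -0.71, 0.56 and 0.87. By the same profile the correlations of marker genes were 0.893 for Cd3e, a T cell receptor subunit, 0.898 for Cd68, 0.881 for Ptprc, 0.855 for Itgax, which encodes the dendritic cell integrin CD11c, and -0.118 for Epcam, an epithelial adhesion molecule. Rfx5 stood at 0.533. All of these are over 10 arrays that pair up by tumour and share their RNA, and they rank likeness without a test.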

How the data were processed

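The deposited values were log2 signals per probe set, made by the authors with RMA per the submitters' processing notes, which give no version; RMA corrects background, sets all arrays to 1 distribution and sums probes, so a shift common to all genes would not show. The log2 scale was read from the values. Array annotation of 2016 named 20826 of 31042 probe sets by 1 symbol, 436 by several and 9780 by none; 57 control probe sets were left out. The dimmest 40% (mean under 5.145) were not tested, which left 18625. Final minus basal was fitted in limma 3.58.1 (R 4.3.3) with the tumour as a block, moderated statistics (4 residual and 2.637 prior degrees of freedom) and Benjamini-Hochberg adjustment over all of these. Labels give each pair a tumour identifier. After each probe set was centred on the mean of its group, a final sample correlated best with its own biopsy in 4 of 5 tumours (0.72, 0.474, -0.162, 0.292 and 0.175). The exact sign-flip test over 5 pairs cannot go below p = 0.0625. The number of arrays limits precision. Members and gene lists were chosen with earlier results of these data known. Candidates for naming were, from each list, up to 2 in each direction with the smallest unadjusted p. Further candidates were genes fixed by role (among them Ptprc, Cd68, Csf1r, Itgax, Cd79a, Ms4a1, Ifng, Rfx5 and Ctss) and the 10 genes most like the members. Not every candidate is named above, and Cd79a had no probe set named by 1 symbol. Cd3e, Epcam, Cxcl13, Ltb, Gzmb, Batf3 and Ccn3 were named after their values were seen. Alternatives covered the dim filter, array weights, blocks, probe set choice, a hexokinase covariate and left-out tumours.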

Additional observations from a re-analysis of the deposited data

How the results depend on the processing

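No member passed the adjusted threshold in any of the 17 alternatives to the fit. Over 139 recomputed member differences, 0 passed, 32 changed sign, and the smallest adjusted p was 0.151. Without the replicate block, 3 members were higher, the median difference was -0.03, and 0 probe sets passed (1001 below 0.05 unadjusted). Array weights made 7 members higher, with 0.17 for RT1-Da, 0.21 for RT1-Ba, 0.10 for Cd74 and 0.20 for Ciita. The hexokinase covariate made 7 members higher, with 0.57 for RT1-Da, 0.71 for RT1-Ba, 0.56 for Cd74 and 0.87 for Ciita. In that fit 2 probe sets passed, Ccn3 and 1 without a symbol. The covariate changed most in 67D3 and 45D3, so it is no adjustment apart from these tumours. Without tumours 45D3 and 67D3, the only ones with a negative median, 8 were higher, a direction that this choice largely fixes, with 0.58 for RT1-Da, 0.69 for RT1-Ba, 0.037 for RT1-Bb, 0.56 for Cd74 and 0.86 for Ciita. Averaging the probe sets of a gene gave -0.055 for RT1-Db1, and its other probe set gave -0.17; the other Ciita probe set gave 0.10. Leaving out 1 tumour in turn gave 0 (without 66D2 or 51I1) to 8 (without 67D3) members higher, RT1-Bb with its values under the cutoff included, and a median of -0.31 to 0.32. By gene this gave -0.22 to 0.30 for RT1-Da, -0.28 to 0.46 for RT1-Db1, -0.34 to 0.34 for RT1-Ba, -0.47 to 0.14 for RT1-Bb, -0.11 to 0.38 for RT1-DMa, -0.19 to 0.29 for RT1-DMb, -0.36 to 0.23 for Cd74 and -0.45 to 0.42 for Ciita. The number of pairs and dim signal (RT1-Bb, Ciita, Ifng, B cell markers) limit what could be detected; the cause of these changes was not tested.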
